A study of Ginkgo biloba with 16 samples.

Results

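The genes described here are the reference genes of *Ginkgo biloba* whose models hold no intron. They were taken as every entry with a *Gb_* name for which the distance from start to end on the scaffold, end minus start plus 1, equals the gene length in the same table within 3 bases. The rule found 11,050 single-exon genes among 41,840 *Gb_* genes and 43,911 entries in all, and 30,790 *Gb_* genes remained for comparison. Span and length were equal to the base for 10,894 of the single-exon genes, 156 differed by 1 to 3 bases, and 162 genes just outside the rule differed by 4 to 6 bases. Of the 156 genes just inside the rule 1 was expressed (0.641%), and of the 162 just outside 1 was expressed (0.617%). Of the 10,894 genes with equal span and length 36.4% were expressed, so in this the 156 were closer to the genes just outside. Expression of these genes was measured by RNA-seq in cambium of female trees that the study sampled at 1 site in late spring, with 1 library per tree and 3 trees per group. The groups were VC20 (15, 20 and 22 y), VC200 (193, 211 and 236 y) and VC600 (538, 553 and 667 y). The trees grew outdoors without any treatment, the year in which each was sampled is not stated, and libraries carry the letter of the tree within its group.

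Most plant genes are interrupted by introns, which are removed when the transcript is spliced. Genes without introns are a sizeable minority in land plants, and some families are known for them. These include replication-dependent histones, many pentatricopeptide repeat (PPR) proteins, which bind RNA in mitochondria and plastids, many F-box proteins, which select proteins for ubiquitination, auxin-responsive SAUR genes, and AP2/ERF transcription factors. Copies made by reverse transcription of a spliced messenger lack introns as well, and so do open reading frames of transposons. The vascular cambium is the layer of dividing cells that forms wood to the inside and phloem to the outside.

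The single-exon genes were short, with a median length of 645 bases (quartiles 381 and 1,281 bases) against 993 bases (576 and 1,650 bases) for the other *Gb_* genes. The smallest had 26 bases and the longest 6,008. Their lengths were multiples of 3 for 83.2%, against 89.8% of other genes at the same lengths, the length that whole codons give. An intron outside the annotated exons would not be seen by the rule. Because length and exon number go together, the main comparisons of share expressed, level and spread were made within 7 length classes. These were under 300 bases, then from 300, 600, 900, 1,200, 1,800 and 3,000 bases upward, each class ending below the start of the next. Values for the other genes at the same lengths were weighted to the length classes of the single-exon genes. Further comparisons, such as those of names and neighbours, were not matched for length unless stated. Genes are not replicates of each other, so differences between the 2 sets are given with their range over the 9 libraries and without a p value.

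Values are FPKM, fragments scaled to gene length and to the fragments of the library, and a gene is called expressed here where it reached at least 1 FPKM in at least 3 libraries. The implied fragment totals were 15,732,412 to 18,811,771 per library. The 7 genes fixed as cambium markers (*WOX4* and HD-ZIP III genes) and the 4 fixed as xylem markers were all expressed, with *WOX4* gene *Gb_12565* at 0 in VC200C. Library VC200C stood apart from the other 8. Over the 3,968 expressed single-exon genes its Spearman correlations with the other libraries were 0.760 to 0.829, while the lowest among the other 8 was 0.875. These correlations are across genes, which share the depth of each library. The shares expressed over all lengths, the median spread and the count of calls in VC200 vs VC20 are given below with and without VC200C. Most other values include it.

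Single-exon genes were detected less often and at lower levels than other genes of the same length. Of the 11,050 genes, 3,968 were expressed (35.9%) and 7,082 were not, while 48.8% of the other *Gb_* genes were expressed at the same lengths (53.3% without weighting). A total of 4,299 single-exon genes (38.9%) had 0 FPKM in all 9 libraries. In single libraries 32.1 to 34.9% of the single-exon genes reached 1 FPKM, against 44.9 to 47.5% of the other genes at the same lengths, and the single-exon share was the lower in all 9 libraries. Without VC200C the shares expressed were 35.5 and 48.6%. The difference depended on length. Under 300 bases 21.4% of single-exon genes and 32.9% of other genes were expressed, at 300 to 600 bases 24.3 and 43.5%, at 900 to 1,200 bases 40.1 and 53.3%, and at 1,200 to 1,800 bases 52.1 and 60.1%. At 1,800 to 3,000 bases the shares were 65.4 and 65.0%, and the libraries of both sets overlapped, with 52.3 to 65.9% and 60.0 to 63.7% of genes at 1 FPKM.

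**Figure D1:**
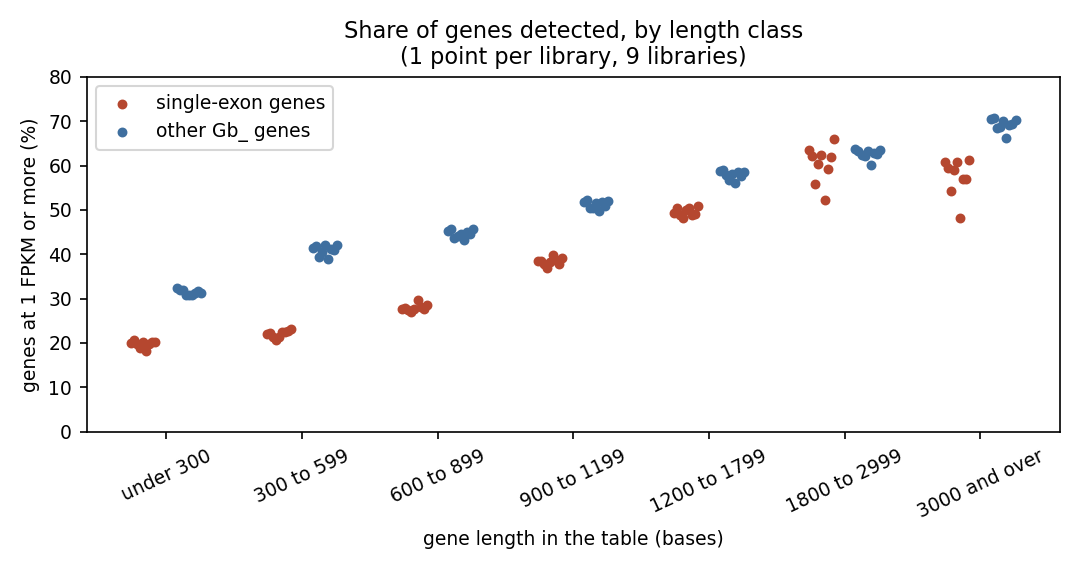
Percent of genes at 1 FPKM or more (vertical axis) in each length class in bases (horizontal axis), with 1 point per library for the single-exon genes and for the other *Gb_* genes. The points of the sets lie apart in every class but 1,800 to 3,000 bases, where they overlap.

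The sets also differed at higher levels. At a mean of at least 10 FPKM there were 1,607 single-exon genes (14.5%), against 28.0% of other genes at the same lengths, and at a mean of at least 100 FPKM there were 246. The median level of the expressed single-exon genes was 5.89 FPKM, and 7.34 FPKM as a weighted mean of class medians, against 13.8 FPKM for the other expressed genes in the same classes. In single libraries the median FPKM of the expressed single-exon genes was 4.43 to 5.88, and that of the other genes 10.1 to 13.3 without weighting. The class medians were 7.10 and 11.7 FPKM at 300 to 600 bases, 9.79 and 14.6 FPKM at 600 to 900 bases, and 11.5 and 14.7 FPKM at 900 to 1,200 bases. Under 300 bases they were 9.09 and 26.3 FPKM. At 1,800 to 3,000 bases the median of 999 expressed single-exon genes was 2.24 FPKM and that of 3,051 other genes 11.1 FPKM, and 11.5% of the single-exon genes against 34.6% of the others had a mean of at least 10 FPKM.

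**Figure D2:**
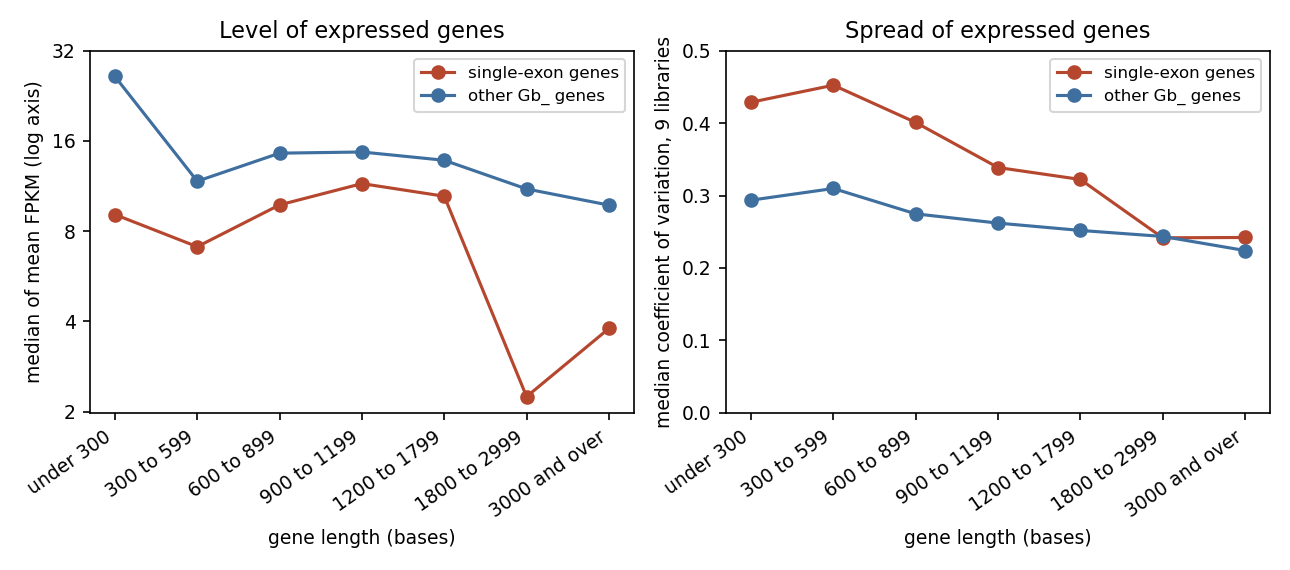
Median over the expressed genes of each length class (horizontal axis, bases) of the mean FPKM (left, log axis) and of the coefficient of variation over the 9 libraries (right), for single-exon genes and other *Gb_* genes. The single-exon level drops to 2.24 FPKM at 1,800 to 3,000 bases, the class where the spread of both sets is 0.24.

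The class of 1,800 to 3,000 bases holds most of the PPR genes. Names were available for 521 of the single-exon genes (4.71%) and 6.75% of the others, as the closest protein match in 4 tables of the study, so the lists below are partial. Most of the PPR names come from the table of predicted miRNA targets. Of 156 genes named PPR, 124 were single-exon, 108 of these lay between 1,800 and 3,000 bases, and 101 of the 124 were expressed (81.5%). Levels of these 101 genes were low. The median was 1.97 FPKM and the middle 80% lay between 1.08 and 3.24 FPKM. The filter for expressed genes bounds the lower end of this range. In the 9 libraries the median of the 101 genes was 1.30 to 2.23 FPKM, lowest in VC200C, and the median coefficient of variation was 0.233. The 24 expressed PPR genes with introns, which passed the same filter, had a similar level. Their median was 1.90 FPKM, and 1.44 to 2.22 FPKM over the libraries.

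The highest PPR gene was *Gb_26816*, closest to *Arabidopsis* At1g11290 (scaffold46373, 266,652 to 269,012). It had 7.98, 8.65 and 8.20 FPKM in VC20 trees, 7.99, 9.01 and 8.31 in VC200 trees, and 7.78 to 9.54 in VC600. *Gb_05553* (scaffold13028, 51,099 to 52,562) and *Gb_11553* (scaffold18924, 127,207 to 129,444), the next by level, averaged 7.67 and 6.14 FPKM. The values of *Gb_26816* overlapped among the age groups, with a coefficient of variation of 0.0669 over the 9 libraries, and VC200C did not stand apart.

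A single predicted miRNA, named *novel_469* in the deposited table, was paired with the same kind of gene. The table of predicted targets listed 170 *Gb_* genes for it, of which 149 were single-exon (87.6%), and 135 of these lay between 1,800 and 3,000 bases. Of the 149 genes 80 were named PPR, 0 had another name, and 69 had none. The target predictions and the PPR names share 1 table, so the overlap between them is not independent evidence. Of the 149, 125 were expressed, with a median of 1.94 FPKM and a highest mean of 211 FPKM, and the 61 expressed targets without a name had a median of 1.81 FPKM. The sRNA libraries gave *novel_469* 22,717 and 24,772 reads in VC20, 13,367 and 27,849 in VC200 trees, and 63,672 and 48,169 in VC600. Assigned reads totalled 1,184,091 to 1,842,055 per library, and *novel_469* ranked 9 and 8 of 632 entries in the VC600 libraries and 13 to 18 in the others. The VC600 libraries lay above the other 4, and with 2 libraries per group no test was made.

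Other miRNAs had fewer single-exon targets. The next entry by number of targets, *novel_230*, listed 52 single-exon genes among 170 and had 2 or 3 reads in each library. In all 769 single-exon genes were predicted targets (6.96%), against 6.05% of other genes at the same lengths, and at 1,800 to 3,000 bases 18.9 and 12.6%. The level of this class remained low without the PPR genes and the *novel_469* targets. Without them 858 expressed single-exon genes of 1,800 to 3,000 bases had a median of 2.46 FPKM, still below the 11.1 FPKM of the other genes. Of the 999 expressed single-exon genes 68.6% had a mean under 4 FPKM, against 25.1% of the other 3,051 and 97.2% of 141 PPR genes or *novel_469* targets.

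**Figure D3:**
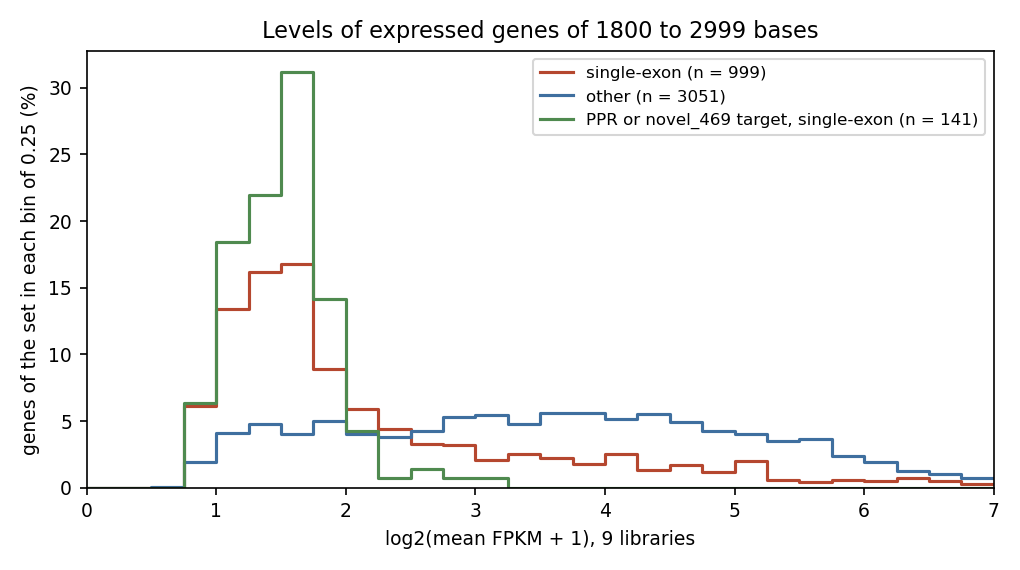
Distribution of log2(mean FPKM + 1) over the expressed genes of 1,800 to 3,000 bases, as percent of each set per bin of 0.25, for single-exon genes (n = 999), other *Gb_* genes (n = 3,051) and single-exon PPR genes or *novel_469* targets (n = 141). The single-exon genes peak below 2 while the other genes are spread broadly, and 8 and 82 genes of the first and second set lie beyond the right edge.

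The remaining lists were small. Of 19 single-exon F-box genes 13 were expressed, at a median of 19.8 FPKM, above the 5.89 FPKM of all expressed single-exon genes. The highest was *Gb_14709* (scaffold2285, 1,851,965 to 1,853,203), closest to an F-box/kelch-repeat protein, with 69.7, 57.2 and 77.4 FPKM in VC20 trees, 73.8, 65.4 and 84.4 in VC200 trees, and 117, 92.9 and 82.9 in VC600. *Gb_24549*, closest to F-box only protein 13, averaged 56.7 FPKM. *Gb_35244*, another F-box/kelch-repeat gene, had 215 FPKM in VC200C and 1.49 to 34.7 FPKM in the other 8 libraries.

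Disease resistance genes with nucleotide-binding and leucine-rich repeat domains (NBS-LRR) are mostly interrupted by introns. Only 19 single-exon genes stood in the list against 183 other genes, and 7 of the 19 were expressed, at a median of 7.69 FPKM. Their median length was 588 bases, and 0 of the 19 lay in the class of 1,800 to 3,000 bases. *Gb_31118* (scaffold5770, 233,067 to 234,785), of the TIR class, had 133, 167 and 147 FPKM in VC20 trees, 75.4, 105 and 22.7 in VC200 trees, and 36.3, 157 and 217 in VC600. *Gb_29199* and *Gb_31279* averaged 59.2 and 52.7 FPKM. The CC class gene *Gb_25801*, which the study examined as a resistance gene, had 3.92, 3.49 and 4.78 FPKM in VC20 trees, 8.76, 5.85 and 8.63 in VC200 trees, and 10.2, 3.52 and 5.61 in VC600. The gene *Gb_39766*, which the study treated as the immune receptor gene *FLS2*, (scaffold885, 276,117 to 276,473) was at 0 in all 9 libraries, for which 3 fragments allow 0.447 to 0.534 FPKM per library. By qRT-PCR the paper reported similar transcript levels among the age groups for both *Gb_39766* and *Gb_25801*. Of 44 other leucine-rich repeat genes 17 were expressed. The highest were *Gb_03821*, closest to the immune receptor SUMM2, with a mean of 36.2 FPKM, and the F-box/LRR genes *Gb_22563* and *Gb_13115*, with 19.8 and 16.4 FPKM.

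Open reading frames that match transposons seldom reached the level called expressed. Of 51 single-exon genes with such a match 6 were expressed (11.8%), and of 76 with introns 0 were. The highest were *Gb_23997*, a match to a transposon TX1 protein, with a mean of 5.34 FPKM, *Gb_33656*, a match to a LINE-1 reverse transcriptase, with 5.05 FPKM, and *Gb_15786*, a match to the Copia polyprotein, with 5.04 FPKM. *Gb_15786* had 2.50, 2.92 and 1.05 FPKM in VC20 trees, 3.34, 5.10 and 3.46 in VC200 trees, and 3.87, 9.30 and 13.8 in VC600. Every old tree was above every VC20 tree, and the gene was not called in any comparison. In VC600 vs VC20 4 of the 6 had an unadjusted p under 0.05 in limma, all higher. The background was 6.78% over all tested genes in either direction, and 0 of the 6 were called (background 0.00912%). Names in these lists come in part from genes that the study chose as changed on these samples. Low genes can also pass the filter only through the trees where they are high. The 4 genes are therefore not independent evidence of a rise.

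Among the auxin-responsive genes 3 were single-exon and 0 of the 3 were expressed. *Gb_12218*, closest to SAUR71, had 0.420, 0.843 and 3.46 FPKM in VC20 trees and 0.0866 to 0.268 FPKM in the 6 old trees. *Gb_15664* averaged 1.18 FPKM, and *Gb_12167*, closest to ARG7, was at 0 in all 9 libraries. Of 10 ethylene-responsive factors 5 were expressed, led by *Gb_17501* (ERF073, mean 19.3 FPKM), *Gb_35633* (ERF084, 7.50 FPKM) and *Gb_26438* (ERF071, 6.77 FPKM). The only single-exon heat shock gene in the tables, *Gb_08978* (scaffold1620, 161,491 to 163,796), closest to soybean HSP70, had 384, 422 and 276 FPKM in VC20 trees, 611, 639 and 1,627 in VC200 trees, and 1,232, 422 and 409.9 in VC600. HSP70 is a chaperone that rises under heat and other stress in plants, and its highest value here was in VC200C.

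Of 6 RING and U-box ubiquitin ligases 3 were expressed. *Gb_02627*, closest to U-box protein PUB21, had 387 FPKM in VC200C and 0.347 to 10.5 FPKM elsewhere, while *Gb_07708* (ATL78) averaged 15.7 FPKM and *Gb_04644* (ATL2) 0.783 FPKM. Of 7 cytochrome P450 genes 4 were expressed, led by *Gb_28315*, closest to CYP86B1, an enzyme of suberin synthesis in *Arabidopsis*. It had 10.6, 8.68 and 4.87 FPKM in VC20 trees, 0.521, 1.54 and 0 in VC200 trees, and 6.95, 2.38 and 0.447 in VC600. The P450 genes *Gb_06664* and *Gb_20510*, both closest to CYP94A1, averaged 1.85 and 1.82 FPKM. Of 7 glycosyltransferases 3 were expressed, *Gb_34237* with a mean of 51.5 FPKM, *Gb_02693* with 9.20 and *Gb_18056* with 1.84. The only wall gene was *Gb_09780*, closest to a xyloglucan galactosyltransferase, with 13.0 FPKM in VC200C and 0.309 to 1.84 FPKM elsewhere.

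Of the 10 single-exon genes with the highest mean, 9 have no name in the tables used. *Gb_11492* (scaffold1886, 1,351,345 to 1,351,863) had the highest mean, 7,569 FPKM, with 6,879, 6,501 and 7,823 FPKM in VC20 trees, 10,736, 8,345 and 6,847 in VC200 trees, and 6,213, 7,539.5 and 7,237 in VC600. *Gb_13629* (scaffold2128, 498,649 to 499,407) followed with 4,859 FPKM, and its 9 libraries lay between 3,294 and 5,547 FPKM. *Gb_28410*, *Gb_33009*, *Gb_01871* and *Gb_19446* averaged 2,748, 2,521, 2,369 and 2,294 FPKM, and *Gb_07405* averaged 1,681. *Gb_31748* averaged 1,683 FPKM over a model of only 63 bases.

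The 1 named gene among the 10, *Gb_00249* (scaffold10060, 15,972 to 16,549), is closest to the lipid-transfer protein DIR1, which acts in systemic resistance in *Arabidopsis*. It had 2,791, 3,317 and 3,289 FPKM in VC20 trees, 839, 1,582 and 806 in VC200 trees, and 2,025, 2,084 and 3,937 in VC600. The VC200 trees lay below all others, with a log2 fold change against VC20 of -1.61 and an adjusted p of 0.0667 by limma, which missed the threshold. *Gb_31001* (scaffold5739, 2,474,651 to 2,474,998) was either very high or below 10 FPKM. It had 4,376, 4,147 and 6,562 FPKM in VC20 trees and 10,980.0 in VC200C, but 4.12 and 2.07 in VC200A and VC200B. In VC600 it had 3,478, 4,832 and 5.996 FPKM, so the low trees were found in both old groups.

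Spread over the 9 libraries was larger in single-exon genes. The coefficient of variation, the SD over the mean of the 9 libraries, had a median of 0.328 in expressed single-exon genes, or 0.350 as a weighted mean of class medians, against 0.269 for other genes in the same length classes. For the same genes without VC200C these were 0.303 and 0.242. Since spread depends on level, the level was also matched. In classes of length and level together, the medians were 0.342 and 0.314, and 0.301 and 0.290 without VC200C. In classes of level alone, which were not matched for length, the direction was not the same at all levels. The part of length in this was not tested. Under 3 FPKM the median coefficient of variation was 0.347 in 1,387 single-exon genes and 0.453 in 2,921 other genes, while at 10 to 30 FPKM it was 0.287 and 0.219, and at 30 to 100 FPKM 0.285 and 0.201. Without VC200C the values were 0.310 and 0.412 under 3 FPKM and 0.247 and 0.198 at 10 to 30 FPKM.

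Among the 1,607 single-exon genes that averaged 10 FPKM or more, the steadiest was *Gb_09165* (scaffold1633, 752,215 to 753,006). It had 111, 120.4 and 123 FPKM in VC20 trees, 116, 118 and 108 in VC200 trees, and 111, 122 and 120.2 in VC600, a coefficient of variation of 0.0467. *Gb_33747* (mean 106 FPKM), *Gb_33385* (23.6 FPKM), *Gb_08805* (57.8 FPKM) and *Gb_10470* (42.7 FPKM) followed with 0.0509, 0.0510, 0.0547 and 0.0662. None of these genes has a name in the tables used. The 5 with the largest coefficient of variation, *Gb_16560*, *Gb_26739*, *Gb_01216*, *Gb_15314* and *Gb_01214*, were high in VC200C only. *Gb_16560* and *Gb_26739* had 91.5 and 95.3 FPKM in VC200C and 0 in the other 8 libraries.

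A group of single-exon genes was high in library VC200C, from the 236 y tree, and in no other. In this library 168 single-exon genes were at 10 FPKM or more and at least 10 times as high as in each other library (1.52% of the single-exon genes, against 0.847% of all 43,911 entries), and 0 to 2 genes met this rule in each of the other 8 libraries. The rule was chosen after the values had been seen. Of the other *Gb_* genes 178 met it, 0.529% at the same lengths. The 168 genes had a median of 82.5 FPKM in VC200C and up to 795 FPKM in *Gb_20826* (198 bases, 2.20 to 18.6 FPKM elsewhere). They held 2.099% of the fragments of VC200C and at most 0.0511% of those of another library. Single-exon genes as a whole held 16.6% of the fragments in VC200C and 11.3 to 13.9% in the others, and 14.5% in VC200C without the 168 genes.

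The 168 genes lay on 128 scaffolds, 66 of them on 26 scaffolds with 2 or more. The largest cluster was on scaffold10470, where 9 of the 10 single-exon genes of the scaffold met the rule. They lay between 139,406 and 935,290, *Gb_01210* to *Gb_01217* on the plus strand and *Gb_01221* on the minus strand. The lengths of these 9 genes were 558 to 633 bases. In VC200C they had 104.6 to 586 FPKM and 31,152 fragments together. In the other 8 libraries 44 of 72 values were 0, the highest was 2.98 FPKM, and the 9 genes together had 0 to 39 fragments in a library. The tenth gene, *Gb_01209* (1,415 bases, closest to a CCCH zinc finger protein), had 2.09 FPKM in VC200C and 8.15 in VC200A. How fragments were divided among genes of similar sequence is not stated in the sources, so the values of single genes in the cluster are uncertain.

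Names were available for 5 of the 168 genes. *Gb_02627* (PUB21) and *Gb_07367*, closest to the abscisic acid synthesis enzyme NCED1, had 387 and 53.6 FPKM in VC200C. The other named genes were *Gb_00489*, closest to EXORDIUM-like 2, *Gb_10422*, closest to zinc finger protein ZAT4, and *Gb_22430*, closest to an uncharacterized protein. The summed level of the 4 genes fixed as markers of dividing cells was 9.40 FPKM in VC200C and up to 19.3 FPKM in the VC200 group, against 62.7 to 68.2 FPKM in VC20 and 29.5 to 34.0 FPKM in VC600, so it was low in all 3 VC200 trees. That of the 7 cambium markers was 27.6 FPKM in VC200C, against up to 161 FPKM in the VC200 group and 97.2 FPKM or more in each VC20 and VC600 library. The part of cell composition in the VC200C values was not tested.

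**Figure D4:**
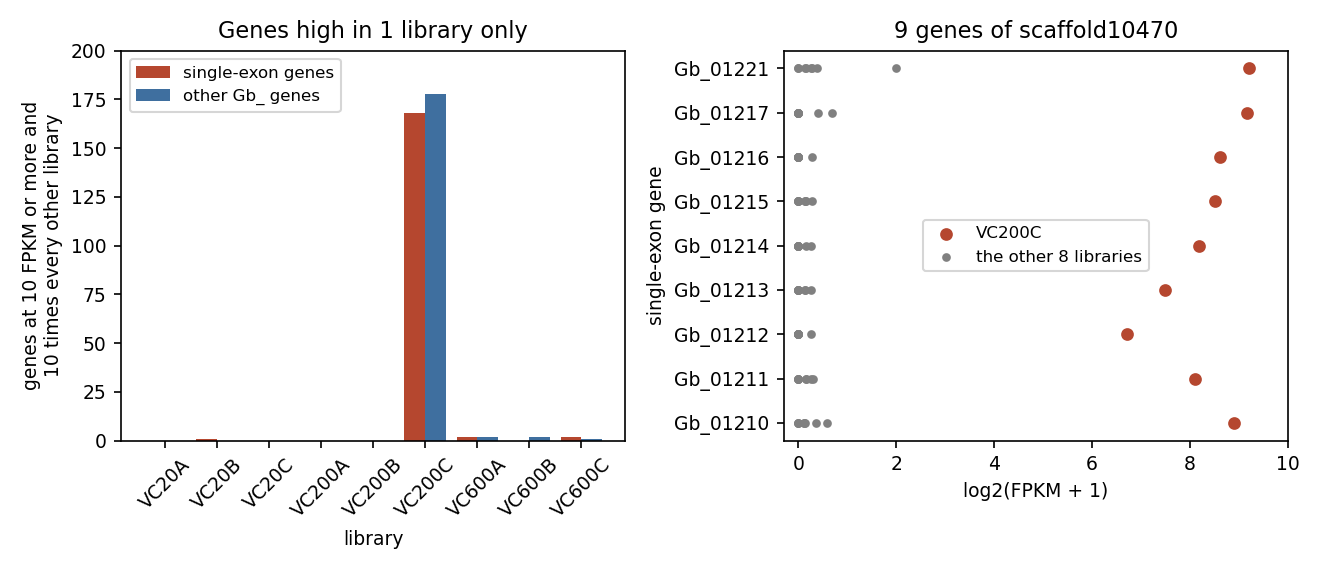
Left, number of genes in each library (horizontal axis) at 10 FPKM or more and at least 10 times every other library, for single-exon and other *Gb_* genes; VC200C holds 168 and 178, and no other library more than 2. Right, log2(FPKM + 1) of the 9 single-exon genes of scaffold10470 in VC200C and in the other 8 libraries, which do not overlap.

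The age groups were compared by limma on log2(FPKM + 1), with all 9 libraries in 1 fit and with Benjamini-Hochberg adjustment across the 21,924 genes tested. A gene was called at an adjusted p under 0.05 and a log2 fold change of at least 1 in either direction. In VC200 vs VC20, 37 of the 3,968 tested single-exon genes were called (0.932%), near the background of 0.99% over all tested genes. Of these 13 were higher (background 0.283%) and 24 lower (background 0.707%). An unadjusted p under 0.05 was found for 693 single-exon genes (17.5%, background 20.1%). The VC200 and VC20 libraries did not overlap for 1,024 of them, 311 higher and 713 lower (25.8%, background 28.5%). The median log2 fold change was -0.09, against -0.12 over all tested genes. Quantile normalization moved the median of all genes to 0.00 and that of the single-exon genes to 0.06, so fold changes are best read against these medians. The count of calls rested on VC20 and VC200 trees and on the tool. On fragments recovered from FPKM, edgeR called 9 single-exon genes (background 0.246%) and DESeq2 215 (background 4.77%), 123 of these higher. All 9 of the edgeR calls were among the 37, and DESeq2 called 35 of the 37. Without VC20A, VC20B, VC20C, VC200A or VC200B limma called 3, 1, 6, 0 and 3 genes, respectively. Without VC200C it called 42, of which 18 were among the 37. Without VC600A and VC600B it called 23 and 22.

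**Figure D5:**
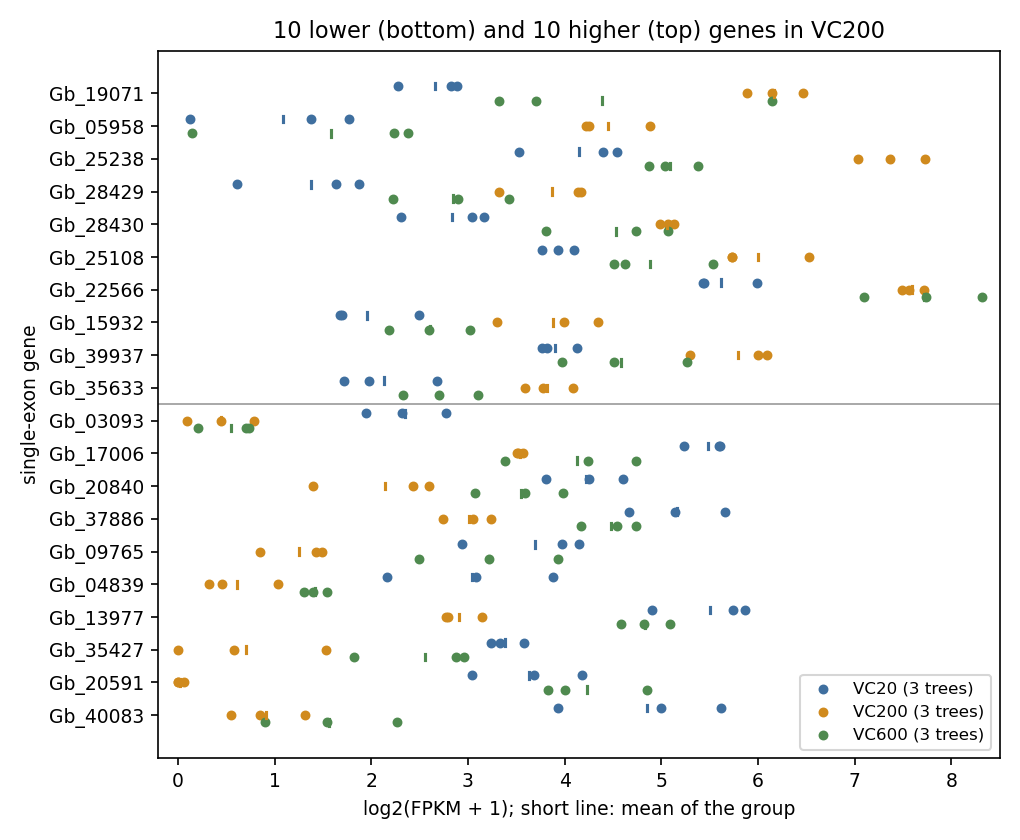
Values of log2(FPKM + 1) (horizontal axis) of the 10 called single-exon genes with the largest rise (top) and the 10 with the largest fall (bottom) in VC200 vs VC20, with 1 point per tree and a short line at each group mean. The VC200 points lie apart from the VC20 points in each gene, as the choice of called genes entails.

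Names were available for 23 of the 37 called genes, and all 23 come from a table of changed genes that the study chose on these samples, so the names and directions are not independent evidence. The largest fall was in *Gb_40083* (scaffold902, 1,054,519 to 1,055,550), closest to zinc transporter ZIP2 of rice. It had 30.9, 48.2 and 14.2 FPKM in VC20 trees, 0.464, 0.807 and 1.49 in VC200 trees, and 3.802, 0.862 and 1.91 in VC600. Its change in VC200 vs VC20 was -3.94 on the log2 scale, with a standard error of 0.48 (limma, adjusted p = 0.0279), and all 6 old trees lay far below the young ones. *Gb_20591* (scaffold3274, 2,377,270 to 2,378,460), without a name, had 17.2, 11.8 and 7.25 FPKM in VC20 trees, 0, 0.0466 and 0 in VC200 trees, and 13.2, 27.9 and 15.1 in VC600. The VC200 trees had 1 fragment in all against 762 in VC20, a ratio of 776 (95% exact interval 139 to 30,691, for counting error only). *Gb_13977*, closest to YLS9, a gene of leaf senescence in *Arabidopsis*, had 57.3, 52.6 and 29.0 FPKM in VC20 trees and 5.86, 7.88 and 5.95 in VC200 (log2 fold change -2.60 ± 0.27 as standard error, adjusted p in limma = 0.0132).

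Genes of wall synthesis among the falls were *Gb_09765*, closest to galacturonosyltransferase-like 4, and *Gb_12266*, closest to a glucuronoxylan methyltransferase that modifies xylan in *Arabidopsis*. *Gb_09765* averaged 12.7 ± 5.33 FPKM in VC20 trees and 1.44 ± 0.557 in VC200 (SD, n = 3), and *Gb_12266* 42.0 ± 12.3 and 13.6 ± 4.35. The call of *Gb_09765* was kept in 2 of the 9 fits that leave out a library and that of *Gb_12266* in 0. edgeR made neither call. The 4 xylem marker genes summed to 24.6 to 76.8 FPKM in the VC20 libraries, 7.03 to 13.0 in VC200 and 12.2 to 48.2 in VC600, and their part in these falls was not tested. The subtilisin-like protease *Gb_37580*, closest to SBT1.7 of seed mucilage, averaged 5.604 ± 2.50 and 0.9997 ± 0.178 FPKM. The receptor-like kinase *Gb_17006* (CRK3) had 47.5, 36.7 and 47.9 FPKM in VC20 trees and 10.4, 10.5 and 10.9 in VC200, so the VC200 trees were nearly equal. *Gb_08831*, closest to GLUTAMINE DUMPER 2, an amino acid export protein, averaged 68.2 ± 9.82 and 19.5 ± 0.783 FPKM. *Gb_03093*, closest to the protease nepenthesin-2, and *Gb_20840*, closest to PRA1 family protein B4, averaged 4.24 ± 1.51 and 18.2 ± 5.17 FPKM in VC20 trees and 0.387 ± 0.330 and 3.70 ± 1.81 in VC200. Without a name were *Gb_35427*, *Gb_04839* and *Gb_37886*, whose log2 fold changes were -2.68, -2.44 and -2.15. Their calls were kept in 4, 0 and 5 of the 9 fits that leave out a library, respectively.

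Of the 5 single-exon histone genes 1 was called in VC200 vs VC20, lower in VC200 (background 0.707%), and all 5 had a log2 fold change below 0, as had 13,341 of the 21,924 tested genes. Histones package newly made DNA and are transcribed mostly in dividing cells. *Gb_10373*, a histone H4 gene (scaffold1759, 1,473,718 to 1,474,029), had 45.004, 65.3 and 81.2 FPKM in VC20 trees, 28.3, 18.9 and 14.2 in VC200 trees, and 32.6, 34.6 and 49.9 in VC600. Its change in VC200 vs VC20 was -1.61 on the log2 scale, with a standard error of 0.30 (limma, adjusted p = 0.0497). This call was lost in each of the 9 fits that leave out a library, and edgeR did not make it. The H3.2 genes *Gb_29026* and *Gb_19428* had log2 fold changes of -1.69 and -2.21, with adjusted p values of 0.173 and 0.135. The H2B genes *Gb_12096* and *Gb_32754* had -1.90 and -1.53, with 0.0619 and 0.147. The 5 genes were named from the table of changed genes, which the study chose on these samples, so their changes are not independent evidence. The markers of dividing cells summed to 62.7 to 68.2 FPKM in VC20 trees, 9.40 to 19.3 in VC200 and 29.5 to 34.0 in VC600. In bulk tissue fewer dividing cells and less RNA per cell cannot be told apart.

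The largest rise in VC200 was in *Gb_19071* (scaffold293, 1,906,074 to 1,907,981), the other single-exon match to NCED1, which makes the precursor of abscisic acid. It had 6.39, 6.09 and 3.85 FPKM in VC20 trees, 58.3, 69.8 and 87.5 in VC200 trees, and 70.0, 11.99 and 8.998 in VC600. The change in VC200 vs VC20 was 3.51 on the log2 scale, with a standard error of 0.63 (limma, adjusted p = 0.0475), and all VC600 trees were above the VC20 trees, VC600A at the level of VC200. By qRT-PCR on the samples used for RNA-seq, the paper reported *Gb_19071* as significantly higher in both old groups than in the young trees. The call of *Gb_19071* was kept in 2 of the 9 fits that leave out a library. DESeq2 made this call and edgeR did not. *Gb_07367*, the other NCED gene, was not expressed by the rule and was high in VC200C alone. *Gb_25238* (scaffold4274, 711,144 to 711,557), without a name, had 22.2, 10.5 and 20.1 FPKM in VC20 trees, 130.1, 164 and 211 in VC200 trees, and 40.7, 31.8 and 28.2 in VC600. Its call (log2 fold change 3.22 ± 0.30 as standard error, adjusted p in limma = 0.0126) was kept in 8 of the 9 fits that leave out a library, the most of the 37 genes, while 9 of the 37 were kept in 0.

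Neighbouring genes *Gb_28429* and *Gb_28430* (scaffold5029, 1,475,899 to 1,477,632 and 1,490,122 to 1,490,898), both closest to RNA-dependent RNA polymerase 1, an antiviral enzyme in *Arabidopsis*, rose together. *Gb_28430* had 7.98, 7.22 and 3.97 FPKM in VC20 trees, 33.9, 30.6 and 32.5 in VC200 trees, and 13.0, 32.5 and 25.6 in VC600. *Gb_28429* averaged 1.77 ± 1.11, 14.2 ± 4.52 and 6.62 ± 3.02 FPKM. Their sequences were not compared, so their separate levels are uncertain. *Gb_05958*, closest to the chloroplast chaperone DNJ20, averaged 1.37 ± 1.18 FPKM in VC20 trees and 21.4 ± 6.14 in VC200. *Gb_25108*, with a match to a yeast endo-beta-glucanase, averaged 14.3 ± 1.72 and 65.2 ± 22.6 FPKM. *Gb_39937*, closest to a short-chain dehydrogenase of spruce, averaged 14.1 ± 2.104 and 56.1 ± 15.6 FPKM, and *Gb_35633* (ERF084) 3.56 ± 1.65 and 13.3 ± 2.52. The unnamed *Gb_15932* averaged 3.02 ± 1.39 and 14.3 ± 5.27 FPKM. The calls of *Gb_35633* and *Gb_15932* were kept in 0 of the 9 fits that leave out a library, and edgeR made neither.

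The VC600 means of the called genes mostly lay between those of VC20 and VC200. This held for 11 of the 13 higher and 23 of the 24 lower genes, a pattern that the choice by VC200 vs VC20 favours because VC200 was selected as the extreme. In VC600 vs VC20 limma called 0 single-exon genes (background 0.00912%), and 249 had an unadjusted p under 0.05 (6.28%, background 6.78%), 155 higher and 94 lower. edgeR called 0 as well, and DESeq2 called 31 (background 0.671%). The groups did not overlap for 584 single-exon genes (14.7%, background 16.1%). The median log2 fold change was 0.05, against -0.02 over all tested genes.

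The single-exon genes with the smallest p in VC600 vs VC20 did not pass the adjusted threshold. *Gb_32944* (scaffold630, 262,930 to 263,296), closest to a BURP domain protein of rice, had 8.601, 6.08 and 8.40 FPKM in VC20 trees, 5.21, 7.42 and 6.22 in VC200 trees, and 21.4, 37.4 and 43.5 in VC600 (limma adjusted p = 0.0769). It was high in the oldest trees alone, and the VC600 trees were apart from the other 6. *Gb_22566* (scaffold370, 94,473 to 95,402) had 42.5, 42.3 and 62.5 FPKM in VC20 trees, 179, 209 and 188 in VC200 trees, and 136, 318 and 212 in VC600, and was called in VC200 vs VC20 only (log2 fold change 1.97, limma adjusted p = 0.0337). In VC600 vs VC20 its log2 fold change was 2.09 and its adjusted p 0.0769. The difference between these calls was tested as VC600 vs VC200 and was 0.13 (adjusted p = 0.905). *Gb_10309*, *Gb_14349* and *Gb_22579*, the next higher genes, averaged 0.381, 0.288 and 2.93 FPKM in VC20 trees and 2.95, 6.17 and 8.595 in VC600. Of the lower genes, *Gb_00020* had 4.20, 2.88 and 1.98 FPKM in VC20 trees and 0, 0.477 and 0 in VC600. *Gb_37958* had 1.49, 5.50 and 1.33 FPKM in VC20 trees and 0 in all VC600 trees, and *Gb_27442* averaged 3.49 and 0.902 FPKM. *Gb_40083* and *Gb_03093* had adjusted p values of 0.0796 and 0.104.

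In VC600 vs VC200 1 single-exon gene was called (background 0.00456%), and 408 had an unadjusted p under 0.05 (10.3%, background 10.2%), 326 higher and 82 lower. DESeq2 called 68 (background 1.34%). The groups did not overlap for 537 single-exon genes (13.5%, background 14.3%), and the median log2 fold change was 0.14, against 0.11 over all tested genes. The called gene was *Gb_20591*, with a log2 fold change of 4.21 with a standard error of 0.34 (limma, adjusted p = 0.0180), and VC600 trees had 1,100 fragments against the 1 of VC200. It was called in 4 of 9 fits that leave out a library, and its adjusted p was up to 0.165 there. The other genes with the smallest p were *Gb_32944*, *Gb_13977*, *Gb_37580* and *Gb_24505*, all higher in VC600, with adjusted p values of 0.096, 0.135, 0.189 and 0.194. *Gb_24505*, closest to the STIG1 protein of tobacco, averaged 8.15 ± 1.52 FPKM in VC200 and 23.6 ± 8.53 in VC600. Lower in VC600 were *Gb_25238*, *Gb_15154*, *Gb_31949*, *Gb_00020* and *Gb_20722*, with adjusted p values of 0.106 to 0.199. *Gb_15154* had 78.5, 57.0 and 82.2 FPKM in VC200 and 23.8, 21.5 and 21.6 in VC600, so the VC600 trees were within 3 FPKM of each other.

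limma called 0 of the single-exon PPR genes and *novel_469* targets in each comparison. The backgrounds were 0.99% in VC200 vs VC20, 0.00912% in VC600 vs VC20 and 0.00456% in VC600 vs VC200. With 101 and 125 genes tested, 0 calls is near these shares. Of the 101 tested PPR genes 24 had a log2 fold change above 0 and 77 below 0 in VC200 vs VC20, against 8,582 and 13,341 of all tested genes. Their median log2 fold change was -0.10, against -0.12 over all tested genes, and 4 had an unadjusted p under 0.05, where the background was 20.1%. For the 125 tested single-exon targets of *novel_469* the medians were -0.15 in VC200 vs VC20, 0.01 in VC600 vs VC20 and 0.16 in VC600 vs VC200, against -0.12, -0.02 and 0.11 over all tested genes. In VC200 vs VC20, 21 of the targets had a log2 fold change above 0 and 104 below 0. In VC600 vs VC200, 107 were above and 18 below 0, against 13,912 and 8,011 of all tested genes. The tested *novel_469* targets with introns had 13 above and 2 below 0. The single-exon PPR genes, 64 of which are targets, had 84 and 17. Single-exon genes in the length class of most targets, without PPR genes and targets, had 579 and 279. The median level of the expressed single-exon targets was lowest in VC200C, at 1.18 FPKM. The part of this library in these directions was not tested.

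Single-exon genes had a single-exon gene beside them more often than other genes had one. Among 10,559 single-exon genes with a *Gb_* neighbour on the scaffold, 5,338 (50.6%) had a single-exon gene directly before or after, against 35.1% of the other genes. A total of 2,408 (21.8%) lay in runs of 3 or more. The longest run was 11 genes on scaffold3551, from *Gb_21937* to *Gb_21951*, both named PPR. In this run 7 genes were 2,010 to 2,442 bases long and 4 were expressed, with a highest mean of 3.24 FPKM. The strands were even, with 50.2% of single-exon genes on the plus strand.

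Genes inside the span of another gene seldom reached the level called expressed. Of the single-exon genes 1,533 (13.9%) lay within the span of another *Gb_* gene, against 12.3% of other genes at the same lengths, and in 0 cases were the strands the same. Of the nested single-exon genes 5.68% were expressed, against 40.8% of those not nested. The nested other genes were at 4.10%. Whether the counting used strand is not stated in the sources, so fragments of a nested gene and its host cannot be told apart. With both sets weighted to the same length classes, 39.7% of single-exon genes and 54.9% of other genes that were not nested were expressed. None of the 37 called genes was nested.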

How the data were processed

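RNA-seq was analysed for 9 cambium libraries, 3 trees in each of VC20, VC200 and VC600, and sRNA counts for 6 libraries, 2 per group. The authors deposited FPKM per gene with scaffold, strand, start, end and length. The paper names HISAT, and the processing notes list TopHat2 2.0.12 and Cufflinks 2.1.1. No source used here states the counting tool or whether strand was used. The authors also deposited raw read counts of miRNA entries (18 to 30 nt reads) and predicted miRNA targets. The degradome library was not analysed here.

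limma 3.58.1 (R 4.3.3, lmFit and eBayes with trend) was run for the 21,924 genes that reached 1 FPKM in 3 or more libraries, on log2(FPKM + 1), which understates changes of low genes. Fragments, recovered from FPKM times length (97.4% of values above 0 were whole within 0.02), were tested with edgeR 4.0.16 and DESeq2 1.42.0 as alternatives. Scripts were tested on simulated data. Intervals are exact and cover counting error only. Descriptions used Python 3.11.15 with pandas 2.3.3, scipy 1.17.1 and numpy 2.4.6, and figures matplotlib 3.10.9.

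Values for other genes at the same lengths are class values weighted by the shares of single-exon genes (of expressed ones for levels and spread). Gene names were taken from 4 supplementary tables, 1 of them shortened. Members and the 14 gene lists were chosen with earlier results of these data known. The rule for named genes took, per comparison, up to 10 called genes per direction by fold change (filled to 5 by smallest p), the 10 highest, the 5 steadiest and 5 most variable above 10 FPKM, those the paper names, and up to 3 per list. *Gb_19428*, *Gb_29026*, *Gb_12218*, *Gb_25801*, *Gb_39766* and *Gb_19071* are named in the paper. Other genes named were chosen after their values had been seen.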

Additional observations from a re-analysis of the deposited data

How the results depend on the processing

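With 3 trees per group, an exact permutation test of 1 gene cannot go below p = 0.1, and p values measure the spread between trees. In VC200 vs VC20 the count of called single-exon genes was 37, and 4 without a filter, 23 with only the 2 groups in the fit, 9 by edgeR and 215 by DESeq2. Leaving out 1 library gave 0 to 42. In VC600 vs VC20 it was 31 by DESeq2 and 0 to 1 with 1 library left out. In VC600 vs VC200 it was 0 without a filter, 68 by DESeq2 and 0 to 3 with 1 library left out. The share of calls that were higher in VC200 vs VC20 was 35.1%, 43.2% with quantile normalization, 47.8% with 2 groups, and 57.2% by DESeq2. No label says that the replicate letters pair trees. Correlations of deviations from the group means were -0.245 to 0.277 for equal letters and -0.303 to 0.271 for unequal letters. A replicate block gave 7, 0 and 0 calls in the 3 comparisons. Of 40 named results that pair a gene with a comparison, those filled in by smallest p were not calls and could not lose one. Among the others the quantile setting ended 1 call, the smaller pseudocount 7, edgeR 13 and no filter 18. With DESeq2 21 of the 40 were unchanged, and 19 that limma had not called became calls. Fits with a library left out hold fewer samples, and without a filter more genes enter the adjustment. The cause of the other changes was not tested.

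The median log2 fold change of single-exon genes was 0.0551 in VC200 vs VC20 and 0.0132 in VC600 vs VC200 with quantile normalization, and 0 in both without a filter. Over libraries left out it ranged from -0.12 to -0.06, from -0.01 to 0.09 in VC600 vs VC20, and from 0.09 to 0.18. The share expressed was 61.1% (other genes 70.5%) for any value above 0 FPKM, and 14.5% (28.0%) for a mean of 10 FPKM. For a mean of 1 FPKM the other genes were at 47.9%. Over libraries left out the shares were 35.2 to 35.6% and 48.4 to 48.6%. The median level was 1.81 FPKM (5.72) above 0 FPKM and 31.2 FPKM (34.1) at a mean of 10 FPKM, and 6.78 to 7.68 FPKM (13.8 to 14.1) with 1 library left out. The median spread was 0.635 (0.399) above 0 FPKM and 0.294 (0.217) at 10 FPKM. For other genes it was 0.314 in classes of length and level, and the SD of log2 values within groups was 0.312. It ranged from 0.300 to 0.354 (0.241 to 0.274) with 1 library left out. Single-exon genes stayed the lower in share and level under each of these settings.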

Other observations

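Some single-exon genes were high in some libraries and far lower in others. With values sorted over the 9 libraries, 138 single-exon genes had a gap of at least 20-fold between neighbouring values (FPKM + 0.1) and a highest value of at least 10 FPKM. In 123 of them only the highest library lay above the gap, and in 15 the gap fell elsewhere. For the other *Gb_* genes these numbers were 143 and 27. The rule was chosen after the values had been seen.

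*Gb_27209* (scaffold4722, 1,905,487 to 1,905,999) had 1,421, 632 and 1,209 FPKM in VC20 trees, 1,131 and 1,114 in VC200A and VC200B, and 491, 2,944 and 1,423 in VC600, but 2.044 FPKM in VC200C. It was low in that library alone. *Gb_16659* (scaffold2536, 711,182 to 711,532) had 0 FPKM in VC20A and 0.176 in VC200C, and 16.8 to 87.6 FPKM in the other 7 libraries. *Gb_31001*, given above, was low in VC200A, VC200B and VC600C, so the libraries with low values differed between these genes.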
